A study of Homo sapiens with 6 samples.

Results

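The collagen chain genes are the protein-coding genes whose symbol is COL, a number, A and a number. The annotation holds 44 of them, against 26409 genes with a value in the whole table. They were grouped as fibrillar (11 genes), network-forming (9 genes) and other collagens (24 genes), by textbook class. Messenger RNA was sequenced in SUM1315, an established, mesenchymal-like human breast cancer line labelled triple-negative and wild type, grown with insulin and epidermal growth factor. The normoxic group (3 libraries) spent 24 h at 21% oxygen. The hypoxic group (3 libraries) spent 24 h at 1% oxygen in an incubator chamber. No label ties a replicate to its own culture: the spread behind each p-value is that of the libraries and may be technical, and a single line stands for no other tumour.

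Collagens are secreted proteins in which chains with repeated glycine wind into a triple helix. Fibrillar collagens assemble into the cables of connective tissue, network collagens form sheets such as the basement membrane, and further types coat fibrils, link them to cells or span the cell membrane. Hydroxylases that need oxygen modify prolines and lysines of the new chains before the helix closes, and extracellular enzymes then trim and crosslink them. Collagen in breast tumours comes largely from fibroblasts, and tumour cells with a mesenchymal state can make it too.

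Values are RPKM (reads per kilobase of transcript, scaled to library depth) summed over the transcripts of a gene, given in the order of replicates 1, 2 and 3. Depth recovered from the smallest steps of the values was 50.2 to 50.7 M reads in normoxia and 44.0 to 50.6 M in hypoxia. The filter kept the 11884 genes that exceeded 1 RPKM in 3 or more libraries. Of these, limma called 36.8% changed in hypoxia (adjusted p below 0.05), 12.4% upward and 24.4% downward, with a median log2 fold change of -0.08. The split depended on scaling: 1478 genes rose and 2901 fell as deposited, 2021 and 1422 with median-of-ratios scaling and 1182 and 4221 with equal library sums, where 5 and 3, 5 and 3, and 4 and 4 collagen genes passed. The 2 groups did not overlap in 52.0% of these genes, 16.4% with hypoxia higher and 35.6% with hypoxia lower. The 6 epithelial markers (EPCAM, CDH1, KRT8, KRT18, KRT19, KRT7) stayed at or under 0.451 RPKM in every library, so the defining genes of mammary epithelium were near 0, and so were the basal keratins KRT5, KRT14 and KRT17. Vimentin (VIM), a mesenchymal filament protein, was at 4840 ± 86.5 RPKM (SD, n = 3) in normoxia and rose to 6742 ± 610 in hypoxia (log2 fold change 0.47, adjusted p = 0.0013). It was the 1 of 4 tested basal or mesenchymal markers (of 7) that passed; CD44 (0.17), FN1 (-0.03) and ZEB1 (-0.19) did not. Of the receptors that define the triple-negative label, ESR1 was at most 0.209 RPKM, no transcript of PGR was listed, and ERBB2 was at 21.6 ± 0.327 and 22.1 ± 1.77. Fibroblast markers summed to 15.7 to 16.9 RPKM in normoxia and 16.7 to 21.5 in hypoxia. Of these 6 markers, FAP rose, PDGFRA fell, PDGFRB, LUM and THY1 were at or under 0.152 RPKM and no transcript of DCN was listed. The markers of endothelium (5 genes) summed to at most 0.332 RPKM and those of leukocytes (5 genes) to at most 0.176. Of 4 cartilage markers SOX9 alone was tested, and it fell. The part of any admixture in the collagen values was not tested.

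Few collagen genes were expressed, and those that were moved in both directions. Of 44 genes, 42 were listed, 14 passed the filter, 5 rose and 3 fell in hypoxia. Those are 35.7% and 21.4% of the 14, beside a background of 12.4% and 24.4% of all tested genes, and the 8 changed genes stand beside 36.8%. The median log2 fold change of the 14 was 0.01, beside -0.08 for all tested genes, and its sign was not stable. It was -0.06 (all genes -0.14) when libraries were rescaled to equal sums, -0.10 (all genes -0.11) with protein-coding transcripts only and -0.13 (all genes -0.08) with the GC trend removed, where the order turned. The collagen median was also below 0 on estimated reads (-0.01) and without normoxia replicate 2 (-0.02) or 3 (-0.04) or hypoxia replicate 1 (-0.02) or 3 (-0.04). In the remaining settings it was above 0. The groups did not overlap in 10 of the 14, with hypoxia higher in 6 and lower in 4. Over all tested genes the shares were 52.0%, 16.4% and 35.6% in the same order. All 4 tested fibrillar genes passed, 3 raised and 1 lowered, with a median of 0.30. Of the 4 tested network genes 1 fell and none rose, with a median of -0.21, and of the 6 tested other collagens 2 rose and 1 fell, with a median of 0.01. In bulk RNA, fewer cells with a transcript and less of it per cell cannot be told apart.

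**Figure D1:**
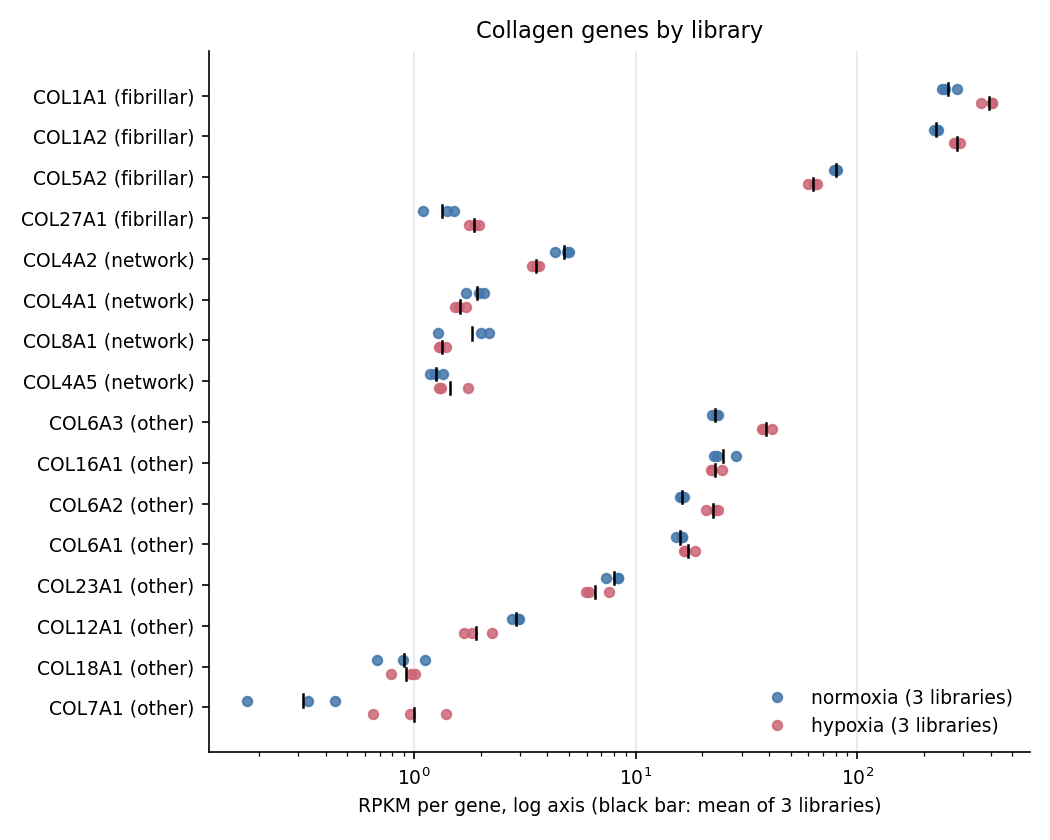
RPKM per gene on a log axis for the 14 tested collagen genes and for COL18A1 and COL7A1, with 1 point per library (3 normoxia, 3 hypoxia) and a black bar at the mean. COL1A1 and COL1A2 lie above 220 RPKM in every library, and the groups do not overlap for 10 of the 14 tested genes or for COL7A1. They overlap for COL4A5, COL8A1, COL16A1, COL23A1 and COL18A1.

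The type I chains dominated. COL1A1 (ENSG00000108821, chromosome 17, 50183289 to 50201632, GRCh38), the alpha-1 chain of the main fibrillar collagen of bone, skin and tumour stroma, was at 281, 249 and 241 RPKM in normoxia and 359, 405 and 406 in hypoxia. Every hypoxic library was above every normoxic one. The means were 257 ± 21.2 and 390 ± 26.9, or 0.60 higher on the log2(RPKM + 1) scale (SE 0.07, limma adjusted p = 2.10e-04). Its partner COL1A2 (ENSG00000164692, chromosome 7, 94394561 to 94431232), the alpha-2 chain, was at 228, 231 and 220 RPKM in normoxia and 274, 276 and 291 in hypoxia. Again the groups were apart, but by less, and the log2 fold change was 0.31 (SE 0.05, adjusted p = 0.00195). COL1A1 and COL1A2 together made up 72.0% to 73.0% of the summed collagen RPKM in normoxia and 76.9% to 79.1% in hypoxia.

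The increase of COL1A1 was seen in its full-length transcript. COL1A1-201, of 6727 bases, held 96.3% of the estimated reads of the gene and went from 172 ± 13.1 to 291 ± 32.8 RPKM, 1.69 times the normoxic mean, with no overlap. COL1A1-211, an annotated protein-coding transcript of only 549 bases, was at 71.9 ± 6.19 and 74.5 ± 8.96 RPKM, and its groups overlapped. It held 22.6% of the summed RPKM but 2.50% of the reads, because RPKM divides by length. On reads estimated per gene the log2 fold change of COL1A1 was larger, at 0.72 (limma-voom adjusted p = 8.82e-05). COL1A2 lacked such a short transcript: COL1A2-201 held 98.4% of its RPKM and was 1.24 times as high in hypoxia.

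COL5A2 (ENSG00000204262, chromosome 2, 189031896 to 189225312), the alpha-2 chain of type V collagen, which joins type I in mixed fibrils and limits their width, went the other way. It was at 78.7, 80.4 and 80.1 RPKM in normoxia and 66.0, 59.9 and 63.9 in hypoxia. All normoxic libraries lay above all hypoxic ones, and the log2 fold change was -0.33 (SE 0.06, adjusted p = 0.0018), or -0.21 with the length trend removed. The ratio of COL1A1 to COL5A2 was 3.57, 3.10 and 3.002 in the normoxic libraries and 5.44, 6.77 and 6.35 in the hypoxic ones. Type V trimers usually hold alpha-1 chains as well, yet COL5A1 was listed at 0.00233 RPKM, about 1 estimated read, in normoxia replicate 2 and at 0 in the other 5 libraries. Absence of the transcript and loss of its reads in processing cannot be told apart from this table. COL5A3 reached at most 0.0261 RPKM. COL3A1, the fibrillar partner of type I in soft tissue, was at most 0.0217 RPKM, about 6 estimated reads.

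COL27A1 (ENSG00000196739, chromosome 9, 114155560 to 114312511), a fibrillar chain known from cartilage, was weak at 1.51, 1.41 and 1.10 RPKM in normoxia and 1.96, 1.77 and 1.88 in hypoxia. The groups did not overlap, and the log2 fold change was 0.30 (SE 0.10, adjusted p = 0.0341). That call did not survive several settings: the adjusted p was 0.0696 when normoxia replicate 2 was left out, 0.142 for normoxia 3, 0.0748 for hypoxia 1 and 0.064 for hypoxia 3. With equal library sums it was 0.0601 and with no filter 0.111. Removing the GC trend gave a log2 fold change of 0.18 (adjusted p = 0.18). On estimated reads, without a pseudocount of 1 RPKM, it was 0.54 (adjusted p = 0.00339), and 0.46 with a pseudocount of 0.1. COL27A1 is shown with the other promoters of collagen genes that passed the test and have a RefSeq entry. The 250 bases before its start (chr9:114155287-114155536, GRCh38.p14, plus strand) are printed 5′ to 3′ in lower case, with capitals at 5 motifs found on either strand. These are ACGTG, the core of the element that the oxygen-regulated factor HIF binds, its variant GCGTG, the GC box GGGCGG, the CCAAT box and the TATA box TATAAA. Motifs did not overlap one another in the printed stretches. COL27A1 holds the GC box at 2 places and none of the others.
COL27A1: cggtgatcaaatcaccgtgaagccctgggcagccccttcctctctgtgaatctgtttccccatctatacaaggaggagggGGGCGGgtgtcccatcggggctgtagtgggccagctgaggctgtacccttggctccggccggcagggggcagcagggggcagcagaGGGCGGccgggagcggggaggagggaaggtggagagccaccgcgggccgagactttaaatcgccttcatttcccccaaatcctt

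**Figure D2:**
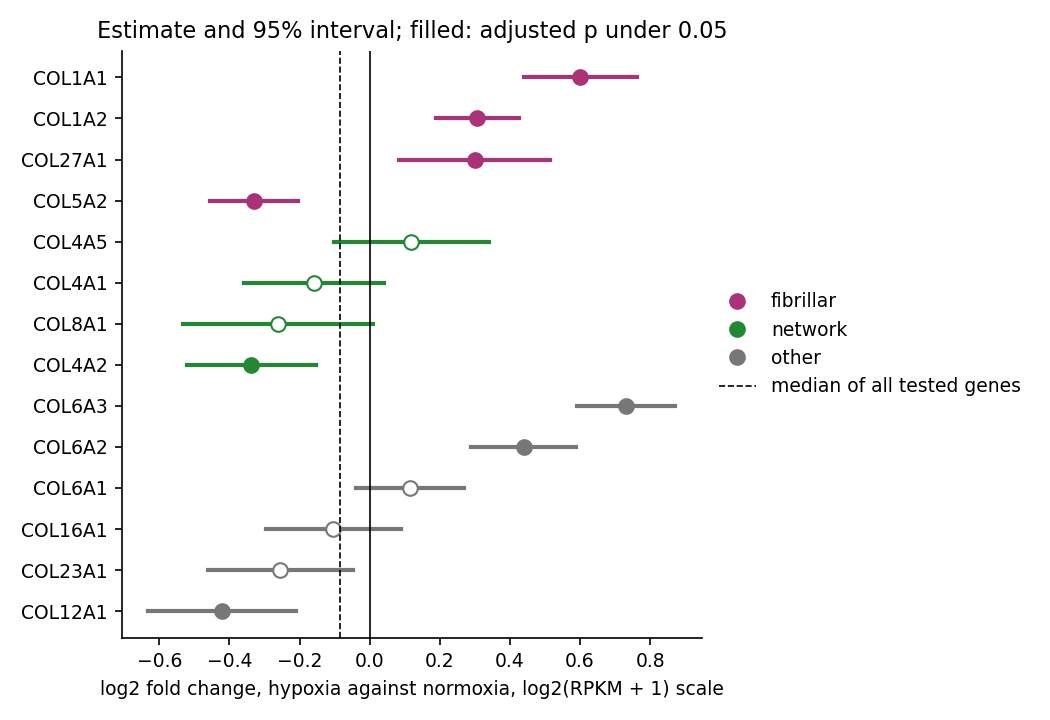
Log2 fold change (hypoxia over normoxia, log2(RPKM + 1) scale) (horizontal) for the 14 tested collagen genes (vertical), with 95% intervals from the limma fit on 3 against 3 libraries; filled points passed an adjusted p of 0.05 and the dashed line is the median of all tested genes. COL6A3 is farthest to the right at 0.73 and COL12A1 farthest to the left at -0.42.

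Network collagens were weak, and the type IV chains of the basement membrane were the main ones. COL4A2 (ENSG00000134871, chromosome 13, 110305812 to 110513209) was at 4.98, 4.90 and 4.35 RPKM in normoxia and 3.56, 3.66 and 3.40 in hypoxia. All hypoxic libraries were lower, and the log2 fold change was -0.34 (SE 0.08, adjusted p = 0.0105). The call was lost narrowly without normoxia replicate 1 (adjusted p = 0.0525) or 2 (0.0506) and with protein-coding transcripts only (log2 fold change -0.21, adjusted p = 0.0535). Part of the summed COL4A2 value came from COL4A2-207, a short noncoding transcript of 585 bases that went from 1.14 ± 0.306 to 0.533 ± 0.133 RPKM, while the full-length COL4A2-201 went from 3.28 ± 0.0967 to 2.75 ± 0.0988, also without overlap. COL4A1 (ENSG00000187498, chromosome 13, 110148963 to 110307233), the chain that pairs with it in most basement membranes, was at 2.06, 1.97 and 1.72 RPKM in normoxia and 1.52, 1.60 and 1.71 in hypoxia. Its groups were narrowly apart, and the log2 fold change of -0.16 did not pass (95% interval -0.36 to 0.04, adjusted p = 0.185).

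These 2 genes lie head to head and share a start region, which is why it is shown. RefSeq places their starts 126 bases apart (chr13:110307158-110307283, GRCh38.p14, printed on the plus strand, the coding strand of COL4A2). In GENCODE the 2 gene models overlap by 1422 bases, and the libraries did not mark strand, so reads there cannot be assigned with certainty. The stretch has 80.2% G and C, with CCAAT once, the GC box once and neither HIF core. It is shorter than the other printed promoters. The full window of COL4A2, from 250 bases before its start to 50 after, holds GCGTG at 1 place, upstream of the printed stretch. COL4A2 is therefore counted below among the lowered genes with a HIF core. The window of COL4A1 holds neither core.
COL4A1-COL4A2: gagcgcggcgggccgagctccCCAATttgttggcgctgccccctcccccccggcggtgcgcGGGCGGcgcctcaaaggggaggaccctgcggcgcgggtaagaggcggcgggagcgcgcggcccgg

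COL4A5 (chromosome X, 108439844 to 108697545), a chain of kidney and epithelial basement membranes, was at 1.24, 1.19 and 1.35 RPKM in normoxia and 1.75, 1.32 and 1.30 in hypoxia, with overlap and a log2 fold change of 0.12 (95% interval -0.10 to 0.34, adjusted p = 0.368). Only hypoxia replicate 1 stood above the others. COL8A1 (chromosome 3, 99638475 to 99799226), a chain of hexagonal networks in vessel walls and the eye, was at 2.01, 2.18 and 1.28 RPKM in normoxia and 1.30, 1.40 and 1.30 in hypoxia. Normoxia replicate 3 lay among the hypoxic libraries, and the log2 fold change of -0.26 did not pass (adjusted p = 0.116). It passed without normoxia replicate 3 (-0.41, adjusted p = 0.0223). The summed network RPKM was 10.4, 10.4 and 8.76 in normoxia and 8.28, 8.12 and 7.92 in hypoxia, at most 1.56% of all collagen RPKM in any library.

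Type VI collagen, which forms beaded filaments around cells, showed the largest increase among the 14 tested collagen genes. COL6A3 (ENSG00000163359, chromosome 2, 237324003 to 237414375), its longest chain and the source of the endotrophin fragment, was at 23.0, 23.5 and 22.0 RPKM in normoxia and 41.0, 37.2 and 37.7 in hypoxia. The groups were far apart, and the log2 fold change was 0.73 (SE 0.06, adjusted p = 1.63e-05). Both leading transcripts took part: COL6A3-203 went from 17.0 ± 0.428 to 28.8 ± 3.93 and COL6A3-209 from 4.83 ± 0.222 to 7.61 ± 1.90 RPKM. COL6A2 (ENSG00000142173, chromosome 21, 46098097 to 46132849) was at 16.6, 16.2 and 15.8 RPKM in normoxia and 20.8, 22.8 and 23.5 in hypoxia. It was higher in all hypoxic libraries, and the log2 fold change was 0.44 (SE 0.07, adjusted p = 9.31e-04), and 0.25 with the GC trend removed. COL6A1 (chromosome 21, 45981737 to 46005050), the remaining chain of the heterotrimer, was at 16.1, 16.2 and 15.2 RPKM in normoxia and 16.8, 16.4 and 18.6 in hypoxia. Its groups were only narrowly apart and it did not pass (log2 fold change 0.12, 95% interval -0.04 to 0.27, adjusted p = 0.21), and its sign turned with the GC trend removed (-0.04).

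The promoters of the 2 raised type VI genes are shown for comparison, each as the 250 bases before the RefSeq start. COL6A2 (chr21:46097862-46098111, plus strand) has 79.6% G and C, the GC box at 4 places and TATAAA at 1. COL6A3 (chr2:237414165-237414414, minus strand) has 56.0% G and C and none of the 5 motifs.
COL6A2: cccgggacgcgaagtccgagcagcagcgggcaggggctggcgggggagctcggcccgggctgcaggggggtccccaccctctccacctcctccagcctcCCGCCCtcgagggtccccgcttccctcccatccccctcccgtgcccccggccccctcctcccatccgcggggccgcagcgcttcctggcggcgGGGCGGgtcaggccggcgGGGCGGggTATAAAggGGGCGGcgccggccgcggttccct
COL6A3: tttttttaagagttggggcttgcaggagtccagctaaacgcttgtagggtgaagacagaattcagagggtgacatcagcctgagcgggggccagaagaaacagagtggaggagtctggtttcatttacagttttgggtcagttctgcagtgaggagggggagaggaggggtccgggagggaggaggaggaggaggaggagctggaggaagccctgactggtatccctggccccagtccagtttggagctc

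Chains of one collagen protein assemble in fixed numbers, and the ratio of partner RPKM within a library shows how unequal their changes were. The ratio of COL6A3 to COL6A1 was 1.43, 1.45 and 1.45 in normoxia and 2.45, 2.26 and 2.03 in hypoxia, and that of COL6A2 to COL6A1 was 1.03, 1.00 and 1.04 against 1.24, 1.39 and 1.26. Both ratios were higher in every hypoxic library. Type I collagen holds more alpha-1 than alpha-2 chains, and the ratio of COL1A1 to COL1A2 was 1.23, 1.08 and 1.09 in normoxia and 1.31, 1.47 and 1.40 in hypoxia. Counting only the leading transcripts COL1A1-201 and COL1A2-201, it was 0.833, 0.752 and 0.735 against 0.947, 1.17 and 1.05. The groups were apart on either measure. The ratio of COL4A2 to COL4A1 was 2.41, 2.49 and 2.52 in normoxia and 2.33, 2.29 and 1.98 in hypoxia, also apart, but with the leading transcripts COL4A2-201 and COL4A1-201 alone the means were 1.86 ± 0.106 and 1.76 ± 0.0817 and the groups overlapped. These ratios are descriptions and were given no test.

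**Figure D3:**
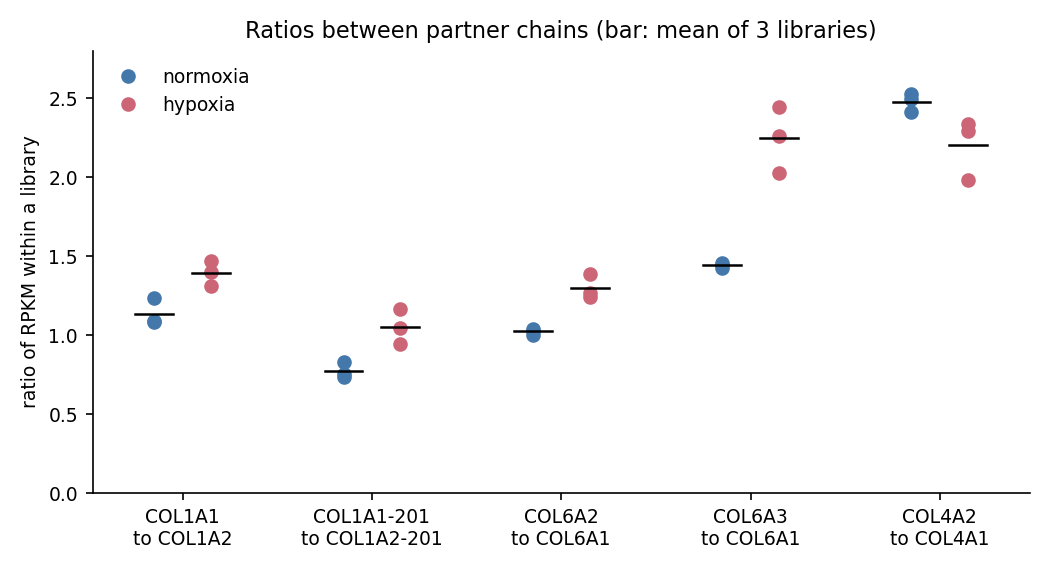
Ratio of RPKM between partner chains within each library (vertical, linear from 0), 3 normoxia and 3 hypoxia points per ratio with a bar at the mean. The ratio of COL6A3 to COL6A1 lies at 1.43 to 1.45 in normoxia and at 2.03 to 2.45 in hypoxia.

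Among fibril-associated collagens, which decorate the surface of fibrils, COL12A1 (ENSG00000111799, chromosome 6, 75084326 to 75206051) was at 2.96, 2.76 and 2.94 RPKM in normoxia and 2.24, 1.69 and 1.82 in hypoxia. It was lower in all hypoxic libraries, and the log2 fold change was -0.42 (SE 0.10, adjusted p = 0.00714). The call ended with no filter (adjusted p = 0.0510), and the value was -0.65 on estimated reads and -0.27 with the length trend removed. The decrease was in its longest transcript COL12A1-201 of 11723 bases, from 2.17 ± 0.0997 to 1.28 ± 0.339 RPKM. The shorter COL12A1-202 was at 0.407 ± 0.105 and 0.433 ± 0.173, with overlap. Its promoter (chr6:75206054-75206303, minus strand) is the only printed stretch with the HIF cores, each once, and both lie on the opposite strand, as does its single GC box.
COL12A1: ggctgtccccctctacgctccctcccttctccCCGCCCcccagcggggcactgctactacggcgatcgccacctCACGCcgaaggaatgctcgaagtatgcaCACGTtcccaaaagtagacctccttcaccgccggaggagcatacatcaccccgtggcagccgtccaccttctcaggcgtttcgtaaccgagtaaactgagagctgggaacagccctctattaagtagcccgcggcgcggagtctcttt

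COL16A1 (chromosome 1, 31652247 to 31704319), another fibril-associated collagen, was well expressed at 28.3, 23.3 and 22.6 RPKM in normoxia and 22.2, 21.9 and 24.6 in hypoxia. The groups overlapped, and the log2 fold change was -0.10 (95% interval -0.30 to 0.09, adjusted p = 0.369). It passed with the GC trend removed, at -0.26 (adjusted p = 0.0244). COL23A1 (chromosome 5, 178237618 to 178590555), a membrane-spanning collagen, was at 7.37, 8.31 and 8.32 RPKM in normoxia and 5.98, 6.17 and 7.55 in hypoxia. Hypoxia replicate 3 overlapped with normoxia, and the log2 fold change of -0.25 just missed the threshold (adjusted p = 0.0547). The leading transcript COL23A1-201, with 99.3% of the RPKM, was at 7.36, 8.30 and 8.32 against 5.97, 6.17 and 7.28, without overlap. COL23A1-202 was at 0.276 RPKM in hypoxia replicate 3 and at most 0.00286 in the other libraries. COL23A1 passed without hypoxia replicate 3 (-0.35, adjusted p = 0.0116), on estimated reads (-0.31, 0.0265), at the higher filter of 5 RPKM (0.0454), at equal library sums (-0.31, 0.0198) and after removal of the GC trend (-0.44, 0.00214).

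Motifs were counted in the full RefSeq windows of 300 bases, from 250 before to 50 after a start. Entries were found for 32 of the 44 collagen genes. For COL7A1, COL28A1, COL8A2, COL9A1, COL18A1 and COL6A6, none of them tested, the window lay 10809 to 43157 bases from the GENCODE start of the leading transcript. At least 1 of the 2 HIF cores occurred on either strand in 16 of the 32, beside 48.4% of the 35116 promoters in the table. Of the 9 tested genes with an entry 4 held one: 0 of 3 raised, 2 of 2 lowered and 2 of 4 not called. This split leaves out the tested genes without an entry. They were the raised COL1A1 and COL1A2, the lowered COL5A2, and COL6A1 and COL8A1, which were not called. CCAAT occurred in 11 of 32 (34.6% of all promoters), the GC box in 19 (44.95%) and TATAAA in 7 (11.5%). A match is a run of letters, and a missing match says only that the letters are not in this window.

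**Figure D4:**
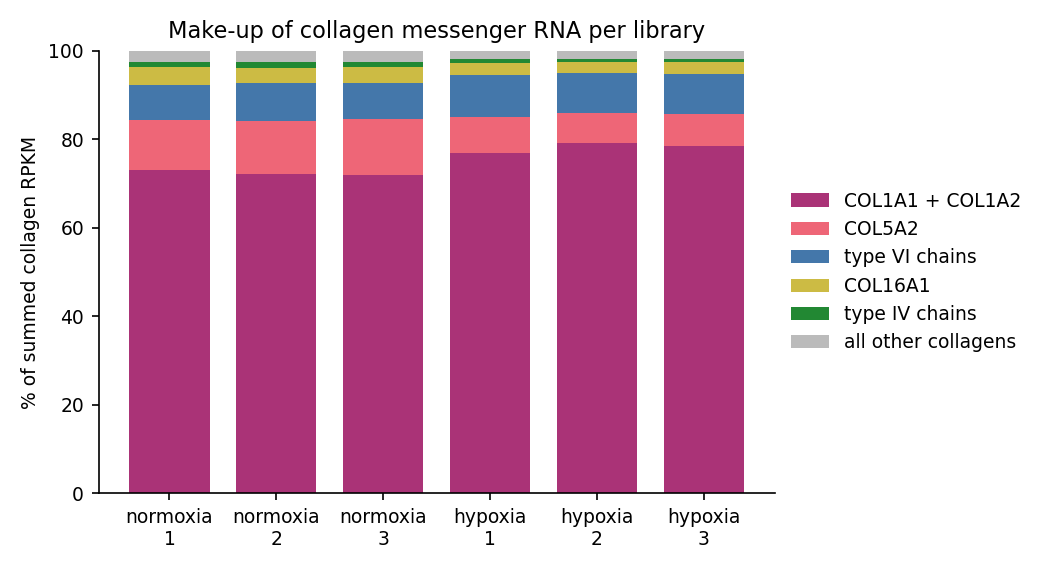
Share of summed collagen RPKM (vertical, %) in each of the 6 libraries, split by collagen type. COL1A1 and COL1A2 together fill 72.0% to 73.0% in normoxia and 76.9% to 79.1% in hypoxia, while COL5A2 goes from 11.3% to 12.5% down to 6.95% to 8.02%.

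Summed over all members, collagen RPKM was 696, 666 and 640 in normoxia and 822, 861 and 888 in hypoxia. Fibrillar genes made up 589, 562 and 542 RPKM against 701, 743 and 763, and other collagens 96.8, 92.8 and 88.9 against 113, 110 and 117. Type VI chains were 8.23% ± 0.212 of collagen RPKM in normoxia and 9.13% ± 0.362 in hypoxia. The sums were given no test, since a few abundant chains set them.

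COL18A1 and COL7A1 were above 0.5 RPKM on average but did not pass the filter. COL18A1, the source of the fragment endostatin, was at 1.13, 0.893 and 0.678 RPKM in normoxia and 1.02, 0.970 and 0.787 in hypoxia, with overlap. It overlaps SLC19A1 on the other strand, at 31.6 and 23.0 RPKM, so some of its reads may belong there. COL7A1, which anchors skin basement membrane to the dermis, was at 0.334, 0.442 and 0.176 RPKM in normoxia and 1.39, 0.655 and 0.956 in hypoxia, 3.16 times as high on average and without overlap, from 59.1 to 222 estimated reads per library. In the fit without a filter, where 4.05% of 26409 genes were raised and 5.18% lowered, COL7A1 missed the threshold (adjusted p = 0.0841). Its leading transcripts were annotated as retained introns: COL7A1-210 went from 0.178 ± 0.0615 to 0.426 ± 0.0725 RPKM, while the full-length COL7A1-201 was at 0.0799 ± 0.0221 and 0.111 ± 0.0296 with overlap.

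The other 26 listed genes averaged under 0.5 RPKM, 19 of them under 0.1. The highest was COL11A2, a minor fibrillar chain of cartilage, at 0.387, 0.315 and 0.259 RPKM in normoxia and 0.465, 0.413 and 0.435 in hypoxia. COL13A1, a membrane-spanning collagen of cell junctions, was at 0.235, 0.328 and 0.214 against 0.545, 0.503 and 0.425 RPKM, from 27.2 to 69.9 estimated reads. COL13A1 passed in the fit without a filter (adjusted p = 0.0458), which the filtered fit left out. COL2A1, the main collagen of cartilage, reached at most 0.310 RPKM, and COL10A1, of growing cartilage, at most 0.0268. COL17A1, of epithelial hemidesmosomes, was at 0.285 RPKM in hypoxia replicate 2 and at or under 0.0932 in the other libraries. In estimated reads, hypoxia replicate 2 was at 18.0 and hypoxia replicate 3 at 23.0. Most of the 0.285 RPKM was COL17A1-204, a transcript of 537 bases at 0.220 RPKM, while COL17A1-209 of 5610 bases was at 0.0412 there. No transcript of COL6A5 or COL22A1 was listed, and the table lists only transcripts above 0 in at least 1 library.

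The 14 tested collagen genes had long messenger RNAs, with a median expression-weighted length of 5182 bases beside 2369 for all tested genes, and 58.3% G and C beside 50.5%. The 3 lowered genes COL4A2, COL5A2 and COL12A1 had a median of 47.9% and the 5 raised genes 60.8%, a description of few genes. By gene, COL4A2 had 62.4%, COL5A2 47.9% and COL12A1 46.9%. The raised genes ran from 53.8% (COL6A3) to 66.1% (COL6A2), so COL4A2 lay within their range.

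Among the genes that modify, fold and crosslink collagen, PLOD2, P4HA2 and P4HA1 had the largest increases. Of 45 genes of collagen biosynthesis, 38 were tested, 10 rose and 2 fell (26.3% and 5.26%, beside 12.4% and 24.4% of all tested genes), with a median log2 fold change of 0.06, beside -0.08 for all tested genes. The lysyl hydroxylase PLOD2, whose product starts the stable crosslinks of type I collagen, went from 1.25, 1.07 and 1.35 to 11.0, 11.4 and 9.67 RPKM (log2 fold change 2.39, adjusted p = 1.77e-08). The prolyl 4-hydroxylase subunits P4HA2 (11.6 ± 0.352 to 43.4 ± 2.47 RPKM) and P4HA1 (9.23 ± 0.609 to 23.8 ± 3.63) followed, with log2 fold changes of 1.81 and 1.27 (adjusted p = 1.02e-08 and 8.17e-06). The hydroxylase PLOD1 also rose, while PLOD3 (log2 fold change -0.09) and the prolyl 3-hydroxylase family members P3H1 (-0.04), P3H2 (-0.06), P3H3 (0.05) and P3H4 (-0.08) did not pass the test, and P4HA3 was below the filter. The remaining raised genes were LOX (247 ± 0.583 to 498 ± 23.4 RPKM, log2 fold change 1.01), LOXL2 (0.92), PCOLCE (0.82), P4HB (0.64), CREB3L1 (0.32) and LOXL1 (0.31). TRAM2, linked to the synthesis of type I collagen, fell from 13.0 ± 0.217 to 10.2 ± 0.747 (log2 fold change -0.32, adjusted p = 0.00733). ADAMTS3, which trims procollagen, fell from 3.55 ± 0.284 to 2.55 ± 0.577 (log2 fold change -0.37, adjusted p = 0.0331). The ADAMTS3 call ended without any 1 normoxic library (adjusted p 0.105, 0.0804 and 0.0567 without replicates 1, 2 and 3), without hypoxia replicate 2 (-0.23, 0.0840), with median-of-ratios (0.0793) or upper-quartile scaling (0.0828), with no filter (0.181) and with the GC trend removed (0.113).

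**Figure D5:**
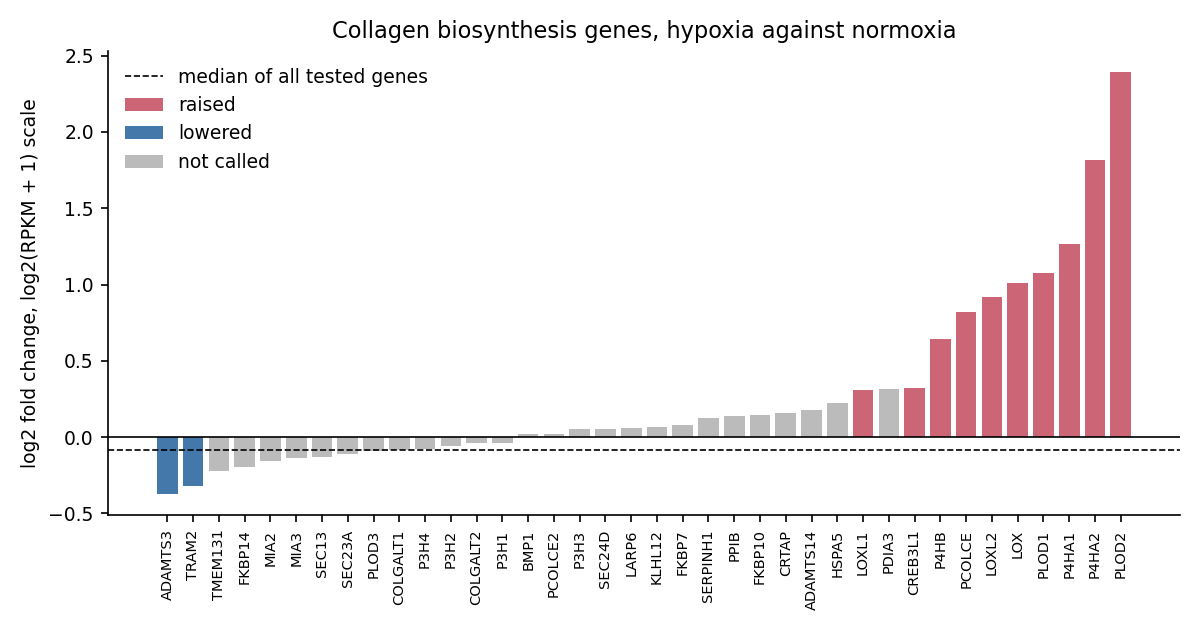
Log2 fold change (hypoxia over normoxia, log2(RPKM + 1) scale) (vertical) for the 38 tested genes of collagen biosynthesis, coloured by call at an adjusted p under 0.05. The bars run from -0.37 for ADAMTS3 to 2.39 for PLOD2, and 26 genes were not called.

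Of 20 genes of collagen receptors (CD44 is also among the mesenchymal markers) 12 were tested, 2 rose and 1 fell (16.7% and 8.33%, beside 12.4% and 24.4% of all tested genes), with a median log2 fold change of -0.07. The receptor tyrosine kinase DDR1 rose from 21.8 ± 0.169 to 30.04 ± 2.89 RPKM (log2 fold change 0.44, adjusted p = 0.00133). The proteoglycan SDC3 rose from 11.7 ± 0.142 to 15.1 ± 1.06 (adjusted p = 0.00466). Its call ended after removal of the GC trend (0.0893). The adhesion receptor ADGRG6 fell from 9.46 ± 0.0340 to 7.18 ± 1.25 (adjusted p = 0.0177), which did not pass without any 1 normoxic library (0.0503 to 0.0556), with median-of-ratios (0.0544) or upper-quartile scaling (0.0599), with no filter (0.119) or with the GC trend removed (0.0689). The shared beta-1 integrin chain ITGB1 was at 227 ± 7.40 and 225 ± 21.9 RPKM, and the integrin alpha chains that passed the filter, ITGA10 (2.25 ± 0.331 and 1.72 ± 0.390, adjusted p = 0.113) and ITGAV (18.2 ± 0.482 and 15.4 ± 2.47, adjusted p = 0.0765), were not called.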

How the data were processed

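The table deposited by the authors holds RPKM per Ensembl transcript for 6 libraries. The unit was inferred from the values, since the header names none: in genes with 1 transcript, 79.5% to 80.2% of low values times length lay within 0.1 of a whole multiple of 1 step per library, which gave the depth. Reads shared by transcripts were apportioned, so estimated reads (RPKM times length over the step) are not whole counts, and limits cover counting error only. Per the submitters' processing notes, the tools included HISAT2, Trimmomatic, Partek and SAMtools, with GRCh38 and hg38 as builds. Annotation release and strand setting: not given in the sources used here. Per the labels' protocols the library kit is one that does not mark strand. Transcripts were joined to GENCODE 29 by identifier (140004 of 165956, 84.4%), and those outside it, with 3.44% to 3.68% of the RPKM, were left out. A gene given as not listed, such as PGR, DCN, COL6A5 or COL22A1, had no transcript among those joined. Promoter windows are RefSeq's on GRCh38.p14.

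Gene values were tested with limma 3.58.1 in R 4.3.3 (log2(RPKM + 1), mean-variance trend, no block, Benjamini-Hochberg over the 11884 genes that exceeded 1 RPKM in 3 or more libraries). Summing RPKM weights short transcripts more than counts would. Replicates differed by more than counting noise, and more so in hypoxia. Mean chi-square per gene was 6.68 to 12.8 between normoxic libraries and 20.9 to 25.7 between hypoxic ones, while the fit took 1 variance per gene over both groups. The fit was tested on simulated data. Members, classes and lists were chosen with earlier results of these data known. Named were members tested or averaging at least 0.5 RPKM, the highest of the rest, and up to 3 raised and 3 lowered genes of each related list. Genes named beyond that rule were chosen after their values were seen: COL2A1, COL3A1, COL4A6, COL5A1, COL5A3, COL10A1, COL13A1, COL17A1, PLOD1, PLOD3, P3H1, P3H2, P3H3, P3H4, P4HA3, LOX, LOXL1, LOXL2, PCOLCE, P4HB, CREB3L1, ITGB1, ITGA10 and ITGAV. Alternatives were other scalings, filters and pseudocount, the replicate block, leaving out each library, protein-coding transcripts, limma-voom on estimated reads, and loess removal (span 0.5) of length or GC trends. Figures used Python 3.11.15 and matplotlib 3.10.9.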

Additional observations from a re-analysis of the deposited data

How the results depend on the processing

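Across 17 alternatives, COL1A1, COL1A2, COL6A2, COL6A3 and COL5A2 kept their direction and their call, and COL1A1 ranged from 0.47 to 0.72 and COL6A3 from 0.67 to 0.88. The number of raised collagen genes was 4 to 5 without any 1 library and that of lowered ones 2 to 4, and 5 were lowered with the GC trend removed. COL6A1 turned to a log2 fold change of -0.040 with the GC trend removed. The log2 ratio of summed fibrillar RPKM was 0.38, and 0.47 with median-of-ratios scaling, 0.46 with upper-quartile scaling and 0.31 with equal sums. For other collagens it was 0.29, and 0.37, 0.37 and 0.22 in the same order. Over all tested genes, 2901 were lowered, 1422 with median-of-ratios, 1467 with upper-quartile scaling, 1367 when unfiltered, and without any 1 library 1523 to 2866 (raised 1027 to 1610). Lowered biosynthesis genes were 2, 1 with median-of-ratios or upper-quartile scaling or no filter, 6 with equal sums, 5 on estimated reads or with the GC trend removed, and 1 to 3 without any 1 library. Receptor genes raised were 4 and lowered 0 with median-of-ratios or upper-quartile scaling. Lowered receptors were 0 with no filter, 3 with equal sums or estimated reads, and 0 to 2 without any 1 library. The cause was not tested. Members under the filters of 1 or 5 RPKM have no value there. Same-numbered libraries showed no clear pairing (correlations of their deviations 0.09, 0.03 and -0.23, so not every library correlated best with its own number). With 3 libraries per group these values cannot settle whether same-numbered libraries shared a culture. A replicate block in the fit gave 1465 raised and 2664 lowered genes, with 5 and 3 collagen genes. Precision of genes under 1 RPKM is limited by depth, and 1 read in 2 kb is worth 0.00986 to 0.0114 RPKM.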

Other observations

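COL5A2 stood at 59.9 to 80.4 RPKM, on 19781 to 28686 estimated reads per library, beside about 1 read of COL5A1 in all 6 libraries together, and absence of COL5A1 RNA and loss of its reads upstream cannot be told apart here. COL4A5 and COL4A6 lie head to head on the X chromosome. COL4A5 was at 1.19 to 1.75 RPKM and COL4A6 at 0.0269 to 0.125. COL18A1 was read mainly as its short form COL18A1-201 (0.603 ± 0.236 and 0.588 ± 0.173 RPKM), and the long COL18A1-203 was at most 0.0668.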
